A study of Mus musculus with 16 samples.

Results

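Hepcidin and the genes that move, sense and store iron were followed in dendritic cells exposed to a probiotic bacterium. The set has 9 genes, Hamp, Slc40a1, Tfrc, Slc11a2, Slc11a1, Fth1, Ftl1, Ireb2 and Aco1, of 18193 genes measured, and 8 of them had a probe set of their own. They were chosen by symbol with earlier results of these arrays known, and which values led to the choice is not recorded. Their differences between treated and control cells are therefore given as descriptions, with no test, and tests are kept for control cells over time and for 97 other genes of the iron pathways. The lists of these 97 genes were also drawn up with earlier results known, which limits what their counts and shares can show.

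Dendritic cells were grown from bone marrow of wild type C57BL/6 mice with GM-CSF, a growth factor for myeloid cells, and non-adherent immature cells were used. Lactobacillus acidophilus NCFM, a strain used as a probiotic, was given to them at 10 µg/ml, and total RNA was measured on 16 single-channel arrays. There were NCFM cells at 4, 10 and 18 h with 3 arrays each, and control cells, in the same GM-CSF medium, at 4 h with 3 arrays, at 10 h with 2 and at 18 h with 2. The labels do not say whether replicates were separate mice or cultures, so a p-value here covers the spread among these arrays, which may be technical.

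Cells take up iron bound to transferrin through the transferrin receptor, bring it across the endosomal membrane, hold it in ferritin and release it through ferroportin. Hepcidin, a peptide hormone made mainly by the liver, binds ferroportin and takes it off the cell surface, so that iron stays inside. The iron regulatory proteins bind stem-loops in messenger RNAs when iron is scarce, which stabilizes the transferrin receptor message and holds back translation of ferritin. In infection, myeloid cells are known for keeping iron from microbes, and hepcidin is induced by interleukin 6 through Stat3 and by bone morphogenetic proteins (BMPs) through Smad factors.

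Values are the deposited intensities, which the authors had normalized between arrays; array medians lay between 162 and 167 and first quartiles between 104 and 108. The cells bore the markers of their label, with 9 of 9 dendritic cell genes above the array median on every array. At least 7 of 8 macrophage genes were above it too. Of 6 measured neutrophil genes 5 or 6 were above it, and their summed intensity was 7147 to 34569 in NCFM cells and 27396 to 38680 in control cells at 4 h, 12547 to 32864 in NCFM cells and 37544 to 44846 in control cells at 10 h, and 5318 to 16365 in NCFM cells and 21459 to 24635 in control cells at 18 h. Of 5 measured hepatocyte genes, albumin (Alb), fibrinogen (Fgb) and fetuin (Ahsg) were above the median on 0 of 16 arrays. Apoa1 (150 to 200) was above it on 13 arrays and Ttr (346 to 485) on 16. Arrays with the replicate number 1 stood apart from their partners for some genes, which is given where it touches a result. In bulk RNA, fewer cells of a type and less RNA per cell cannot be told apart.

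The promoter of Hamp is shown because this gene had the largest difference of the set and its 2 textbook inputs have known core motifs. The sequence is the 250 bases before the transcription start from RefSeq (GRCm38.p6, chr7:30944030-30944279, minus strand), 5′ to 3′. Capitals mark the BMP response element core GGCGCC and the STAT motif TTCNNNGAA.
Hamp: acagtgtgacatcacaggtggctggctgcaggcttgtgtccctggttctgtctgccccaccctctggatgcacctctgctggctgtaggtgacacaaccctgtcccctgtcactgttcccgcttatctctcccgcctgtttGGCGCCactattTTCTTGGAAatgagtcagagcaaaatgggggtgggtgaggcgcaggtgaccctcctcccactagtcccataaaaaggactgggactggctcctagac
The first capitals begin 109 bases and the second 97 bases before the start, and they do not overlap. Both strands were searched over all 32851 mouse windows of that length. GGCGCC was found in 9.59% of them and TTCNNNGAA in 7.02%. Of the members 7 matched promoter windows, 9 in all, and 1 Tfrc window also held GGCGCC, 89 bases before its start. Another motif, the hypoxia element core ACGTG, was in a second Tfrc window and in 16.6% of all windows. Such matches are letters in a window, not sites shown to be bound.

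Hepcidin transcript was near background in control cells and high in NCFM cells from 10 h on. On the brighter probe set of Hamp (1419196_at) the NCFM arrays had intensities of 146, 229 and 111 at 4 h, 707, 1282 and 1027 at 10 h, and 1410, 1544 and 1228 at 18 h. The control arrays had 113, 125 and 128 at 4 h, 137 and 110 at 10 h, and 122 and 121 at 18 h. All 7 control values were thus close to the first quartile of their arrays, and the NCFM and control arrays overlapped at 4 h and were apart at 10 and 18 h. The difference was 0.35 ± 0.24 on the log2 scale (NCFM minus control, ± standard error, SE, of the fit; n = 3 against 3) at 4 h. It was 2.99 ± 0.27 at 10 h, or 7.95-fold higher, and 3.51 ± 0.27 at 18 h, or 11.4-fold higher (n = 3 against 2). With the 5th percentile of each array subtracted as background, the differences were 4.02 at 10 h and 4.56 at 18 h, so the fold depends on the background.

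The order of Hamp levels was NCFM 18 h (1394 ± 159, SD, n = 3), NCFM 10 h (1005 ± 288, n = 3), NCFM 4 h (162 ± 60.6, n = 3) and then the controls (121.5 to 123.5). NCFM arrays at 18 h and 10 h overlapped, as did those of NCFM 4 h and the controls. The effect was larger at 10 h than at 4 h by 2.65 ± 0.37, and at 18 h than at 10 h by 0.52 ± 0.39. A second probe set (1419197_x_at) lay in the same direction, with 0.25, 2.03 and 2.67 at the 3 times. It had 162 to 217, 478 to 655 and 804 to 1095 in NCFM cells and 138 to 164 in control cells. Within array numbers, the difference at 10 h was 2.37 for number 1 and 3.54 for number 2.

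Hamp2, the near-identical second hepcidin gene of the mouse, has the probe set 1436643_x_at, a type that can also bind related transcripts. The second Hamp probe set, and those that represent Aco1, Urod and Neo1 below, are of the same type. Hamp2 rose by 0.57 ± 0.14 at 10 h (limma, adjusted p = 0.0121) and 0.71 ± 0.14 at 18 h (adjusted p = 0.00358). The call at 10 h was lost in 4 of 27 alternatives (adjusted p up to 0.169 over them). These were leaving out control 10 h replicate 1, spike-in centring, a fit of only the groups compared, and a threshold of 0.01. Signal from Hamp itself on this probe set was not tested.

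Ferroportin, the only known iron exporter of mammalian cells and the target of hepcidin, is encoded by Slc40a1. Its transcript spread widely within groups, with 339, 466 and 595 in NCFM cells and 384, 657 and 684 in control cells at 4 h. At 10 h the values were 495, 528 and 410 in NCFM cells, against 422 and 563 in control cells, and at 18 h 375, 680 and 542 in NCFM cells, against 342 and 711 in control cells. On this probe set (1417061_at) NCFM and control arrays overlapped at every time. The differences were -0.29 ± 0.32, -0.04 ± 0.36 and 0.07 ± 0.36 on the log2 scale, each smaller than its SE. Number 1 arrays were lower than their partners in 5 of 6 groups, with a mean difference of -0.586, which is larger than any of these differences. A second probe set (1448566_at) gave values of 276 to 482 in NCFM cells and 301 to 397 in control cells. Its differences were -0.02 ± 0.19, 0.27 ± 0.21 and 0.29 ± 0.21 at the 3 times. At 10 h its NCFM arrays (414, 399 and 365) lay above its control arrays (303 and 350), and at 4 and 18 h they overlapped.

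**Figure D1:**
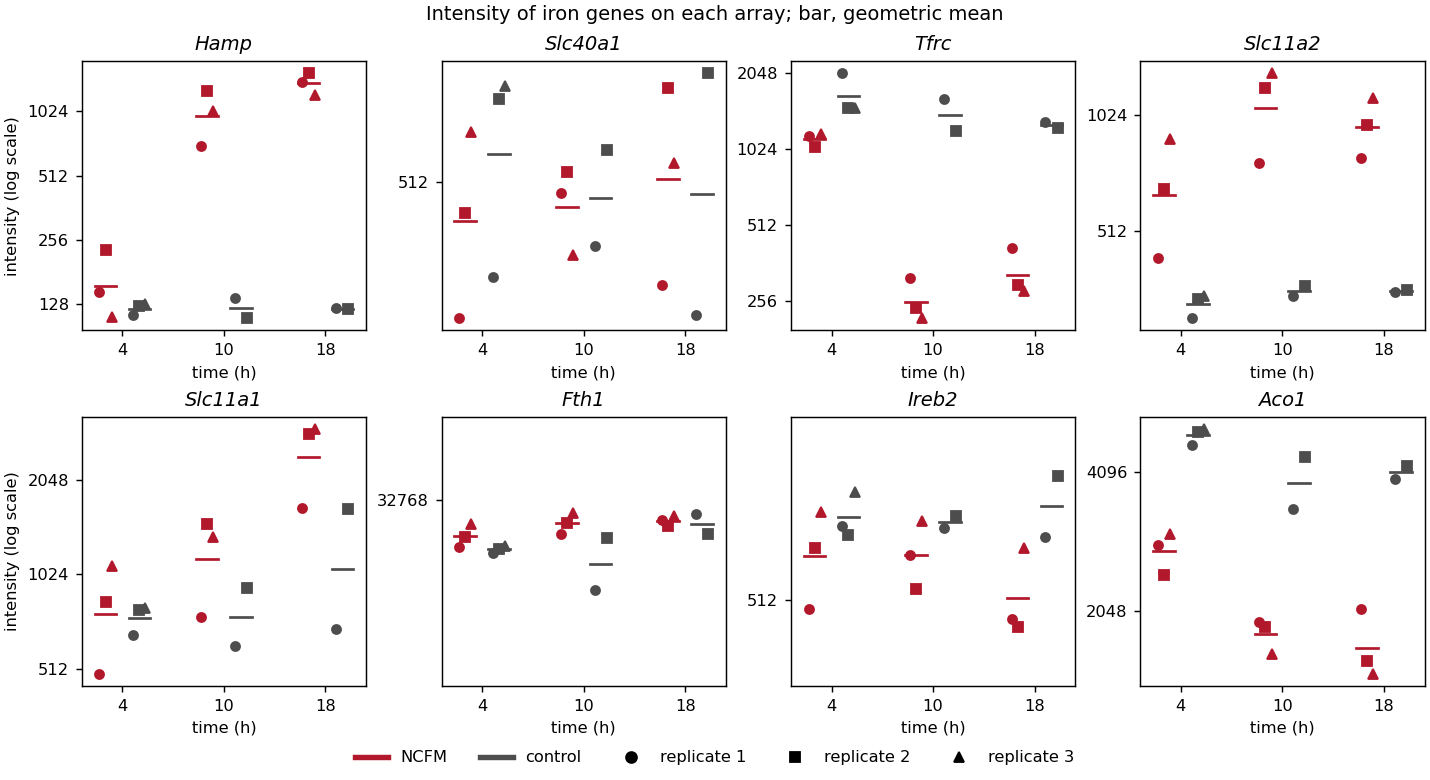
Intensity of the 8 measured genes on each array (y, log scale) by hours of culture (x), with NCFM in red left of control in grey; symbols give the replicate number and bars the geometric mean of the group. Hamp reached 707 to 1544 in NCFM cells at 10 and 18 h and 110 to 137 in all control cells, and Tfrc had the opposite direction. Slc40a1 overlapped at each time on the probe set shown.

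Among uptake genes, the transferrin receptor Tfrc had the largest difference in the other direction. NCFM arrays had 1147, 1037 and 1172 at 4 h, 314, 239 and 219 at 10 h, and 414, 296 and 279 at 18 h on its brightest probe set (1452661_at). Control arrays had 2036, 1484 and 1488 at 4 h, 1618 and 1200 at 10 h, and 1305 and 1242 at 18 h. NCFM arrays were below all control arrays at each time. The log2 difference was -0.56 ± 0.18 at 4 h, -2.45 ± 0.20 at 10 h (5.48-fold lower) and -1.97 ± 0.20 at 18 h (3.92-fold lower). The effect at 10 h minus that at 4 h was -1.89 ± 0.27, and the effect at 18 h minus that at 10 h was 0.48 ± 0.29.

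From low to high, Tfrc levels ran in the order NCFM 10 h (257.3 ± 50.1, SD, n = 3), NCFM 18 h (329.7 ± 73.5, n = 3), NCFM 4 h (1119 ± 71.8, n = 3), control 18 h (1274 ± 44.5, n = 2), control 10 h (1409 ± 296, n = 2) and control 4 h (1669 ± 318, n = 3). NCFM 10 h and 18 h overlapped, as did each control group and its neighbour, and control 4 h lay above control 18 h on all arrays. Number 1 arrays lay 0.333 higher than their partners on the log2 scale, in 6 of 6 groups, and the difference at 10 h was -2.37 within number 1 and -2.33 within number 2. The other Tfrc probe sets were dimmer. Of these, 1422966_a_at differed by 0.15, -0.41 and -0.32 at the 3 times, and 1422967_a_at, with intensities of 91 to 116, by about 0. The mean of the gene's probe sets therefore gave smaller differences, -0.155, -0.968 and -0.777.

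Slc11a2 encodes DMT1, the divalent metal transporter that moves iron out of the endosome after transferrin uptake. In NCFM cells its intensities were 438, 660 and 890 at 4 h, 770, 1205 and 1312 at 10 h, and 793, 966 and 1130 at 18 h (probe set 1452078_a_at). Control cells stayed at 306, 342 and 349 at 4 h, 348 and 370 at 10 h, and 357 and 361 at 18 h. Every NCFM array lay above every control array. The differences were 0.94 ± 0.24, 1.57 ± 0.27 (2.98-fold) and 1.41 ± 0.27 (2.65-fold). Number 1 arrays were lower than their partners in 6 of 6 groups (-0.365). Another probe set, 1426441_at, gave 0.83, 1.49 and 1.39, while 1417584_at gave 0.20, 0.31 and 0.25 and the dim 1441709_at 0.22, 0.48 and 0.60. All 4 probe sets of Slc11a2 were on the same side at each time but differed in size.

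Slc11a1, also known as Nramp1, encodes a related transporter of macrophage phagosomes that withdraws iron and manganese from engulfed microbes. NCFM cells had 496, 835 and 1091 at 4 h, 751, 1480 and 1351 at 10 h, and 1671, 2851 and 2967 at 18 h, where control cells had 660, 788 and 801, then 605 and 930, then 686 and 1650. The groups overlapped at 4 and 10 h, and at 18 h the lowest NCFM array was just above the higher control array. The log2 differences were 0.04 ± 0.39, 0.61 ± 0.43 and 1.18 ± 0.43. Number 1 arrays were lower in 6 of 6 groups, with a mean difference of -0.802. Within a number the 18 h difference was 1.28 for number 1 and 0.789 for number 2. Summed macrophage markers at 18 h were 36869 to 51032 in NCFM cells and 32811 to 47067 in control cells, and their part in the Slc11a1 values was not tested.

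Among storage genes, ferritin heavy chain (Fth1), the subunit that oxidizes iron for storage, was nearly flat at the top of the intensity range. Its NCFM arrays had 28489 to 30504 at 4 h, 29624 to 31573 at 10 h and 30320 to 31266 at 18 h. Control arrays had 27985 to 28597 at 4 h, 25036 and 29281 at 10 h, and 31479 and 29629 at 18 h. On this probe set (1427021_s_at) the groups were apart only at 10 h, by 0.18 ± 0.06 on the log2 scale. The differences were 0.06 ± 0.06 at 4 h and 0.01 ± 0.06 at 18 h. That at 10 h turned to -0.0767 when arrays were centred on the spike-in probe sets. A second probe set (1448771_a_at) gave 0.04 ± 0.05, 0.14 ± 0.06 and 0.07 ± 0.06, and was apart at 10 and 18 h. On 8 of 16 arrays a Fth1 probe set was the brightest of all, and saturation was not tested.

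Ftl1, the ferritin light chain, had no probe set of its own. The 3 probe sets that list Ftl1 also list a Ftl1 pseudogene or other genes. Their differences were small, with -0.07, 0.13 and 0.07 for 1418364_a_at, -0.02, 0.07 and 0.02 for 1422302_s_at, and -0.18, 0.13 and 0.20 for 1422301_at. The first ranged from 14373 to 17773 in NCFM cells and from 14060 to 16450 in control cells, and which transcript it measured cannot be told apart.

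The sensors of iron were both lower in NCFM cells by the end, to different extents. Aco1 encodes iron regulatory protein 1, which is a cytosolic aconitase when it carries an iron-sulfur cluster and binds RNA when it does not. NCFM arrays had 2849, 2454 and 3001 at 4 h, 1938, 1888 and 1655 at 10 h, and 2067, 1593 and 1499 at 18 h (probe set 1456728_x_at). Control arrays had 4677, 4983 and 5065, then 3407 and 4398, then 3956 and 4209. The groups were apart at each time, with log2 differences of -0.83 ± 0.13, -1.09 ± 0.14 and -1.26 ± 0.14. A second probe set, 1423644_at, gave -0.55, -1.23 and -1.07, and the third, 1447080_at, was dim in both groups.

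Ireb2 encodes iron regulatory protein 2, which is degraded when iron is plentiful, so its protein need not follow its transcript. NCFM cells had 497, 599 and 666 at 4 h, 585, 529 and 649 at 10 h, and 483, 472 and 599 at 18 h, with 640, 622 and 709, then 635 and 658, then 619 and 743 in control cells. The arrays overlapped at 4 and 10 h and were apart at 18 h. The differences were -0.17 ± 0.13, -0.14 ± 0.14 and -0.40 ± 0.14, of which the first 2 were near the size of their SE.

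**Figure D2:**
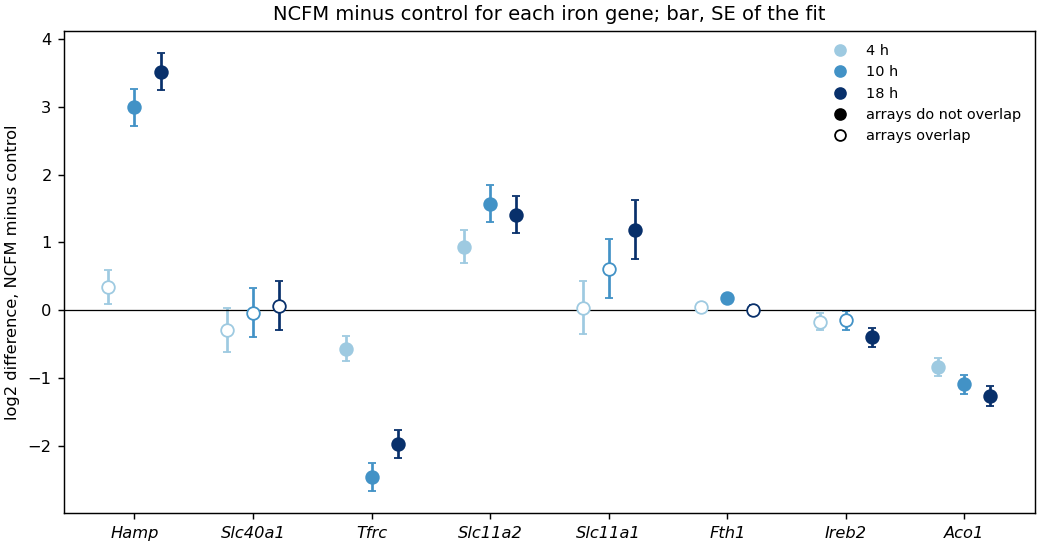
Difference of log2 intensity, NCFM minus control (y), for the 8 genes (x) at 4, 10 and 18 h, from light to dark; bars are the SE of the fit, filled points mark times at which no NCFM array overlapped a control array and open points the others. Hamp lies at 2.99 and 3.51 at 10 and 18 h and Tfrc at -2.45 and -1.97.

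Counted over the set, NCFM and control arrays did not overlap for 3 of 8 members at 4 h (1 higher, 2 lower), where 36.5% of all genes were apart. At 10 h they did not overlap for 5 members (3 higher, 2 lower), where 52.1% of all genes were apart, and at 18 h for 6 (3 higher, 3 lower), against 47.2%. These counts were 5 at 4 h without NCFM 4 h replicate 1 or 3, and the rule may have used these contrasts, so nothing is read from them. The median member difference was -0.0654, 0.0695 and 0.0408 at the 3 times, beside -0.00664, 0.00834 and 0.00224 over all genes.

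**Figure D3:**
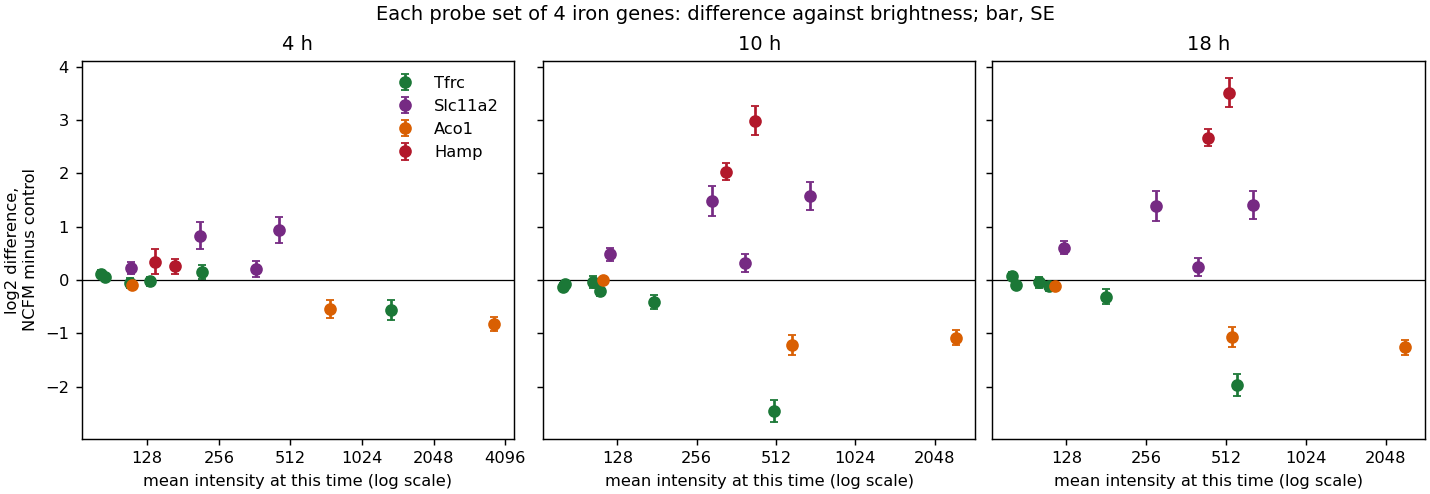
Difference of log2 intensity, NCFM minus control (y, bars are SE), against mean intensity at that time (x, log scale) for every probe set of Hamp, Tfrc, Slc11a2 and Aco1, at 4, 10 and 18 h from left to right. At 10 h the brightest Tfrc probe set lies at -2.45, the next at -0.41 and the dimmest near 0, and the 2 Hamp probe sets lie together on the positive side. The Tfrc points include 3 dim control probe sets of the array, at -0.21, -0.13 and -0.08 at 10 h.

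In control cells alone the iron genes could be tested over time, a comparison of cells kept without bacteria. No member passed in limma at 10 h or 18 h against 4 h (adjusted p = 1 for all 8). No gene of the array passed either, so this says little about the members, whose choice may have used these contrasts too. The largest shifts were 0.51 ± 0.43 for Slc11a1 and -0.37 ± 0.20 for Tfrc, both at 18 h. Relative to its SE the largest was -0.34 ± 0.14 for Aco1 at 10 h. Among the other iron genes 0 of 97 passed at either time, with 1 and 3 at an unadjusted p under 0.05. Over all genes 0% passed in both comparisons, with 553 and 559 of 18193 at an unadjusted p under 0.05.

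The wider iron pathways were taken from a list of 105 genes, of which 97 were measured, and here NCFM and control cells were compared by test (limma, adjusted over all genes, called at adjusted p under 0.05). At 4 h 5 genes rose and 17 fell, where 5.27% of all genes rose and 13.1% fell. At 10 h 14 rose and 23 fell, against 8.21% and 16.5% of all genes. At 18 h 15 rose and 21 fell, against 7.4% and 16.3%. The share called was 22.7%, 38.1% and 37.1% of these genes, beside 18.3%, 24.7% and 23.7% of all genes. The list was drawn up with earlier results of these arrays known, so the shares carry that choice. The median log2 difference was -0.0324, -0.0123 and -0.0283, close to 0 as over all genes. The split depends on the scaling. With quantile normalization it was 7 rises and 13 falls at 4 h, 17 and 18 at 10 h, and 23 and 15 at 18 h, and with spike-in centring 17 and 4, 6 and 37, and 12 and 16. Without control 4 h replicate 2 or 3 the 4 h count was 14, and without control 10 h replicate 1 the 10 h count was 20.

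Of the genes that control hepcidin, the inflammatory branch held the largest change. Of 26 measured, 3 rose and 2 fell at 4 h, 7 rose and 4 fell at 10 h, and 5 rose and 2 fell at 18 h, with list medians of 0.0624, 0.0672 and 0.0544. The share called was 19.2%, 42.3% and 26.9%, beside 18.3%, 24.7% and 23.7% of all genes, so it was near that of all genes at 4 and 18 h. Il6, the cytokine that drives hepcidin in inflammation, was 58.1-fold higher at 4 h (5.86 ± 0.32, adjusted p = 6.33e-07), and 34.3-fold at 10 h and 42.9-fold at 18 h. Its receptor subunit Il6st fell at 4 h (-0.84 ± 0.18, adjusted p = 0.00772), 10 h (-1.08 ± 0.21, adjusted p = 0.00254) and 18 h (-1.08 ± 0.21, adjusted p = 0.00259). Stat3, the factor that binds the STAT motif, passed at 10 h (0.77 ± 0.23, adjusted p = 0.0271) and 18 h (0.82 ± 0.23, adjusted p = 0.0217) but not at 4 h (0.50, adjusted p = 0.112). The Stat3 calls were lost at 10 h without any of 4 arrays of that time (NCFM replicates 2 and 3, control replicates 1 and 2), and at 18 h without NCFM replicate 3 or control replicate 1 of that time (adjusted p up to 0.127 at 10 h and 0.232 at 18 h over the alternatives).

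In the BMP branch the ligands Bmp6 (0.04, -0.02 and 0.07) and Bmp2 (0.24, 0.05 and -0.03), the coreceptor Hjv (0.03, -0.03 and -0.05) and the second transferrin receptor Tfr2 (0.03, 0.08 and 0.01) did not pass at any time. Bmp6, Bmp2 and Hjv were dim, with group means below the array median throughout. In control cells at 4 h their mean log2 intensities were 6.90, 6.18 and 7.14, so a lack of change cannot be read from them. Hfe, which with Tfr2 senses transferrin iron and whose loss causes hemochromatosis, fell at each time, with log2 differences of -1.06 ± 0.22, -1.80 ± 0.25 and -1.44 ± 0.25 (adjusted p = 0.00631, 3.19e-04 and 0.00139). Smad7, an inhibitor that BMP signals induce, rose at 18 h by 0.54 ± 0.09 (adjusted p = 9.62e-04), whereas the BMP targets Id1 (-0.24 ± 0.50), Smad6 (0.27 ± 0.36) and Atoh8 (0.17 ± 0.07) did not pass then. The coreceptor neogenin (Neo1) rose at 4 h (0.37 ± 0.10, adjusted p = 0.0284) and 10 h (0.49 ± 0.12, adjusted p = 0.00884), and at 10 h the shared Smad factor Smad4 fell (-0.76 ± 0.21, adjusted p = 0.0199). Smad5, which BMP receptors activate, rose then by 0.40 ± 0.12 (adjusted p = 0.0347) and Tmprss6, a protease that cleaves the coreceptor Hjv, by 0.20 ± 0.07 (adjusted p = 0.047). All 4 of these 10 h calls were lost without control 10 h replicate 1 (adjusted p up to 0.212, 0.176, 0.446 and 0.64 over the alternatives), and Tmprss6 lost its call in 16 of 28. Furin, the protease that trims prohepcidin, rose at all 3 times (0.86 ± 0.16, 0.70 ± 0.18 and 0.64 ± 0.18; adjusted p = 0.00294, 0.0132 and 0.0219). Its 10 h call was lost in 6 and its 18 h call in 4 of 28 alternatives. At 10 h the hepcidin list had 2 rises without control replicate 1 of that time, 3 without NCFM replicate 2, and 4 without NCFM replicate 3 or control replicate 2, and it had 2 falls without NCFM replicate 3. At 18 h it had 3 rises without NCFM replicate 3 or control replicate 1 of that time, and at 4 h it had 2 without any 1 of the 4 h controls and 5 without either 18 h control array. With spike-in centring the list had 9 rises and 2 falls at 4 h, and 1 rise and 5 falls at 10 h.

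The transport genes with the largest differences were the extracellular proteins Lcn2, Cp and Ltf at 10 and 18 h, and the importer Slc39a14 at 4 h. Of 15 measured transport genes 1 rose at 4 h, 3 rose and 1 fell at 10 h, and 4 rose and 1 fell at 18 h, with list medians of 0.0448, 0.0693 and 0.0588. The share called was 6.67%, 26.7% and 33.3%, beside 18.3%, 24.7% and 23.7% of all genes. Transferrin itself (Trf) shares its probe set with another gene and was not used. Lcn2, or lipocalin 2, which binds the siderophores that bacteria use to take up iron, rose by 1.25 ± 0.29 at 10 h (adjusted p = 0.00726) and 2.37 ± 0.29 at 18 h, or 5.19-fold (adjusted p = 1.29e-04). Ceruloplasmin (Cp), a copper oxidase that helps load exported iron onto transferrin, rose by 1.76 ± 0.33 at 10 h and 1.56 ± 0.33 at 18 h (adjusted p = 0.00216 and 0.0045). The importer Slc39a14 (ZIP14) rose at 4 h by 1.03 ± 0.25 (adjusted p = 0.0127), with 0.27 and 0.31 at 10 and 18 h. Lactoferrin (Ltf), a granule protein of neutrophils, passed as lower at 10 h (-1.68 ± 0.54, adjusted p = 0.0403) and 18 h (-1.61 ± 0.54, adjusted p = 0.0491), but 11 and 17 of 28 alternatives lost the call. The neutrophil sums given above were lower in NCFM cells at 10 and 18 h, in which Ltf was lower and Lcn2, also a neutrophil granule gene, was higher, and their part in either was not tested. The list had 2 rises at 18 h without replicate 2 of either 18 h group, and without control 10 h replicate 1 it had 2 rises and no fall at 10 h.

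Of 8 measured storage and sensing partners, none passed at 4 h, 1 fell at 10 h, and 1 rose and 2 fell at 18 h, which is 37.5% beside 23.7% of all genes. The rise was Bdh2, an enzyme tied to mammalian siderophore synthesis (0.24 ± 0.06, adjusted p = 0.0151), and it was lost without NCFM replicate 3 or control replicate 1 of 18 h (adjusted p up to 0.151 over the alternatives). The Bdh2 probe set was dim, with mean log2 intensities at 18 h of 7.04 in NCFM and 6.80 in control cells, below the array median. With 1 array left out the list had 0 to 2 rises at 18 h. Pcbp2 and Pcbp1 encode chaperones that hand iron to ferritin. Pcbp2 fell at 10 h (-0.75 ± 0.19, adjusted p = 0.0108) and 18 h (-0.96 ± 0.19, adjusted p = 0.00282), and Pcbp1 at 18 h (-0.48 ± 0.12, adjusted p = 0.0117). The Pcbp2 calls were lost with the mean of its probe sets (adjusted p up to 0.486). Without control 10 h replicate 1 the 10 h call of Pcbp2 was lost, and without control 18 h replicate 1 that of Pcbp1 (adjusted p up to 0.114). Ncoa4, the receptor that delivers ferritin to lysosomes, had 0.38 ± 0.34 and 0.46 ± 0.34 at 10 and 18 h, and Fbxl5, which marks iron regulatory protein 2 for degradation, had 0.47 ± 0.25 and 0.58 ± 0.25, and neither passed.

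Heme genes moved in both directions. Of 22 measured, 1 rose and 2 fell at 4 h, 4 rose and 4 fell at 10 h, and 5 rose and 6 fell at 18 h, with list medians of -0.125, -0.281 and -0.168. The share called was 13.6%, 36.4% and 50%, beside 18.3%, 24.7% and 23.7% of all genes. Hmox1, the inducible enzyme that opens heme and frees its iron, had 1.34 ± 0.46 at 4 h (adjusted p = 0.0623), rose by 2.07 ± 0.51 at 10 h (adjusted p = 0.0108) and was 9.46-fold higher at 18 h (3.24 ± 0.51, adjusted p = 7.5e-04). Alas1, which starts heme synthesis, rose by 0.84 at 10 h and 0.92 at 18 h (adjusted p = 0.00586 and 0.00349). Of the later enzymes, Urod fell at all 3 times (-0.68, -1.27 and -1.01; adjusted p = 0.00505, 1.25e-04 and 6.22e-04) as did Alad (-0.38, -0.60 and -0.67; adjusted p = 0.00874, 7.16e-04 and 3.55e-04). Ppox fell at 10 h alone (-0.37, adjusted p = 0.0174) and Uros at 18 h alone (-0.43, adjusted p = 0.0316), and Cpox and Fech did not pass at any time. The Ppox call was lost in 6 and the Uros call in 9 of 28 alternatives. Blvra, which turns biliverdin into bilirubin, fell at 10 and 18 h (-0.89 and -0.82, adjusted p = 0.00107 and 0.00188). Flvcr2, a relative of the heme exporter Flvcr1, rose at 18 h by 0.50 ± 0.09 (adjusted p = 0.00181).

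Some heme calls rested on single arrays. Without control 10 h replicate 1 none of the 22 rose at 10 h, and Hmox1 (adjusted p up to 0.14) and Alas1 (up to 0.0533) lost their 10 h calls. At 18 h the list had 3 rises without NCFM 18 h replicate 2 or either control array of that time, and 3 falls without replicate 2 of either 18 h group. At 4 h the 1 rise, Alas1 (0.62, adjusted p = 0.0221), was lost in 5 of 28 alternatives (adjusted p up to 0.0937). Among these were leaving out replicate 3 of either 4 h group or control 4 h replicate 2. The list had 2 rises at 4 h without NCFM 4 h replicate 1 or NCFM 10 h replicate 1. The calls of Hmox1 and Alas1 at 18 h and of Urod and Blvra at 10 h held in all 28 alternatives, and that of Alad at 10 h in the 27 in which it was measured. With 1 array left out the list medians were -0.26 to -0.07 at 4 h, -0.326 to -0.107 at 10 h and -0.283 to -0.045 at 18 h.

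Among genes that build iron-sulfur clusters and carry iron in mitochondria many fell and none rose in the fit of all arrays. Of 26 measured, 13 fell at 4 h, 13 at 10 h and 10 at 18 h, where 13.1%, 16.5% and 16.3% of all genes fell. The list medians were -0.387, -0.493 and -0.456. With dim genes left out, the median of all remaining genes was itself below 0, at -0.162, -0.19 and -0.174. Glrx5, which passes newly made clusters on, fell at 4 h (-0.78 ± 0.23, adjusted p = 0.0356), 10 h (-1.74 ± 0.26, adjusted p = 5.22e-04) and 18 h (-1.79 ± 0.26, adjusted p = 4.51e-04). The desulfurase Nfs1, which supplies the sulfur, fell at all 3 times (-0.39, -0.89 and -0.95; adjusted p = 0.028, 3.12e-04 and 2.1e-04). Its partner Lyrm4 fell at 4 h (-0.66 ± 0.19, adjusted p = 0.0321), 10 h (-1.46 ± 0.22, adjusted p = 4.71e-04) and 18 h (-0.91 ± 0.22, adjusted p = 0.00923). Cisd2, a membrane protein that itself holds a cluster, fell at all 3 times (-0.55, -1.01 and -1.02; adjusted p = 0.00141, 3.65e-05 and 3.79e-05).

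Isca1, an assembly factor of the later steps, fell at 4 and 10 h (-0.67 and -1.14, adjusted p = 0.00257 and 1.15e-04) and had -0.12 ± 0.14 at 18 h, where it did not pass. Ciao3, of the cytosolic assembly complex, fell at all 3 times (-0.47, -0.59 and -0.60; adjusted p = 0.00205, 7.27e-04 and 6.59e-04). The transporter Abcb10 fell at 10 and 18 h (-0.53 and -0.59, adjusted p = 1.92e-04 and 1.07e-04). It passed at 4 h too (-0.19, adjusted p = 0.0493), but 22 of 28 alternatives lost that call and 1 reversed it. The scaffold Iscu (-0.48, -0.31 and -0.48) and the iron importer Slc25a37, or mitoferrin 1 (0.15, 0.40 and 0.47), did not pass at any time, nor did the assembly factors Isca2 (0.04, 0.00149 and 0.35), Ciapin1 (0.25, 0.20 and 0.42) and Ciao2b (-0.10, 0.55 and 0.65).

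The list median stayed below 0 under each scaling. After quantile normalization it was -0.257, -0.37 and -0.305, beside 0.00531, 0.0272 and 0.0215 over all genes. After spike-in centring it was -0.195, -0.747 and -0.453, beside 0.185, -0.245 and 0.00515 over all genes. The falls of the list numbered 9, 11 and 8, with 4 rises at 18 h, after quantile normalization. After spike-in centring they numbered 2, 18 and 8, with 1 rise at 4 h. The 4 h count of falls was 7 without control 4 h replicate 2 or 3 and 8 without NCFM 4 h replicate 3. The call of Glrx5 at 4 h was lost in 8 of 28 alternatives (adjusted p up to 0.121). Among these were leaving out NCFM 4 h replicate 3 or any 1 of the 4 h controls. With 1 array left out up to 1 gene rose at 10 h (without NCFM 4 h replicate 3) and up to 2 at 18 h (without NCFM 4 h replicate 2 or 3). With arrays 2 and 3 alone 11 of the list fell at 4 h. At 10 and 18 h that setting leaves only control replicate 2, so no count is given.

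**Figure D4:**
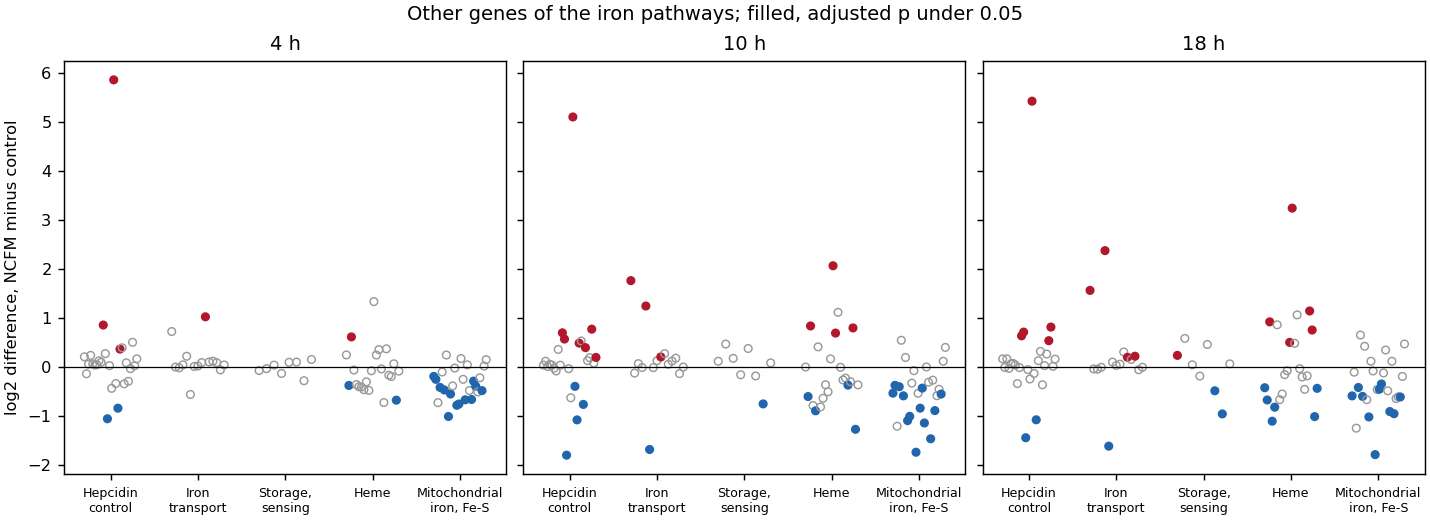
Difference of log2 intensity, NCFM minus control (y), for the 97 measured genes of 5 iron pathway lists (x) at 4, 10 and 18 h; each point is a gene, filled red (rose) or blue (fell) where limma gave an adjusted p under 0.05 and open otherwise. Il6 is the highest point at each time, at 5.86, 5.10 and 5.42, and the mitochondrial list has 13, 13 and 10 blue points and no red one.

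The NCFM effect on a gene can differ between times, which was tested for the 97 pathway genes as an interaction. From 4 to 10 h 1 of them passed, where 0.506% of all genes did, and from 10 to 18 h none, where 0.0055% did. At an unadjusted p under 0.05 there were 14 and 8. The gene that passed was Hspa9, a mitochondrial chaperone of cluster transfer. Its NCFM effect was 0.17 ± 0.13 at 4 h and -0.84 ± 0.15 at 10 h, a difference of -1.01 ± 0.20 (adjusted p = 0.0489), and 19 of 28 alternatives lost this call, 11 of them by leaving out 1 array (adjusted p up to 0.275). With the number as a block in the fit, 3 genes passed from 4 to 10 h and 1 from 10 to 18 h.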

How the data were processed

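Total RNA of 16 samples in 6 groups was measured on single-channel arrays. The deposited table holds linear intensity values for 45101 probe sets, which the authors had normalized, as the near-equal array medians show. The sources used here give neither the method nor a genome build. Intensities were taken to log2. Probe sets were named through the platform annotation (34945 name 1 gene, 932 several), and control probe sets were left out. The probe set with the highest mean represented a gene, which gave 18193 genes. Members, lists and named genes were chosen with earlier results of these data known, and all members are named. A plan to name up to 30 called pathway genes, largest changes first, was not kept to. Some smaller calls are named while larger ones are not, such as Slc48a1 at 18 h (1.144) and Cisd1 at 10 h (-1.093). Defining genes that were not called are named as well.

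Each gene was fitted in limma 3.58.1 (R 4.3.3) with 1 mean for each group and 10 residual degrees of freedom, and two-sided p-values were adjusted over all genes by the Benjamini-Hochberg method. The fit was tested on simulated data. Member differences are given with the SE of this fit and no p-value. The number of arrays limits the precision. Same-number arrays deviated from their group means together (36 pairs, correlation 0.19 to 0.75, against -0.75 to 0.73 in 70 other pairs), so a fit with the replicate number as a block was one alternative. Others were quantile normalization, median and spike-in centring (18 probe sets), averaged probe sets, dim genes left out, a pseudocount of 16, subtraction of percentile 5, a trended robust variance, a threshold of 0.01, a fit of only the groups compared, only arrays 2 and 3, and each array left out. Promoters came from RefSeq (GRCm38.p6). Plots were made in matplotlib 3.10.9 under Python 3.11.15.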

Additional observations from a re-analysis of the deposited data

Results flagged for a closer look

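The NCFM effect on Hspa9 differed between times, with an interaction of -1.01 (10 minus 4 h, limma adjusted p = 0.0489), since the gene had 0.17 at 4 h and -0.84 at 10 h. Its part in the pattern of the other mitochondrial genes was not tested.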

How the results depend on the processing

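The array numbers were taken as pairs in a fit with the replicate number as a block. It gave 32, 48 and 47 called pathway genes at 4, 10 and 18 h, against 22, 37 and 36 without it. The count of effects that differ between 4 and 10 h was 3, and between 10 and 18 h 1, and the block ended the call of Il6ra at 10 h and no other call. The 4 to 10 h count was 0 with quantile normalization, the mean of probe sets, the pseudocount, the trended variance, an adjusted p under 0.01, only the groups compared, percentile 5 subtracted and only arrays 2 and 3, and 44 with spike-in centring, which moved the median of all genes to 0.185 at 4 h and -0.245 at 10 h. It ranged from 0 to 2 with 1 array left out. Called pathway genes numbered 11, 20 and 21 at an adjusted p under 0.01, and 14 to 25 at 4 h and 20 to 40 at 10 h with 1 array left out. Only arrays 2 and 3, a setting that leaves only control replicate 2 at 10 and 18 h, gave 6 and 8 members without overlap at 4 and 10 h. Fewer arrays overlap less often, and the 4 h count was 3 to 5 with 1 array left out. Hamp was 2.51 and 3.09 at 10 and 18 h with the mean of probe sets, 4.02 and 4.56 with percentile 5 subtracted, and 3.38 at 10 h on arrays 2 and 3. Tfrc was -0.155, -0.968 and -0.777 with the mean of probe sets, -2.83 and -2.23 at 10 and 18 h with percentile 5 subtracted, and -2.71 at 10 h with spike-in centring. Spike-in centring reversed Fth1 (-0.0767), Tmprss6 (-0.0569) and Slc22a17 (-0.0469) at 10 h and Abcb10 at 4 h (0.000141), and the mean of probe sets reversed Slc39a8 at 18 h (-0.0228); the cause was not tested. Among single genes 359 recomputed values kept their direction and lost their call, among them Urod, Alad and Ciao3 at 4 h with spike-in centring, and Il6st and Slc39a14 at 4 h and Blvra at 18 h with only the groups compared. Signal near background limits the folds of Hamp.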

Other observations

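The 5 genes whose log2 intensity over the 16 arrays was most like that of Hamp were Crabp2 (Pearson r = 0.973), Kctd13 (0.972), Gm9895 (0.971), Glrp1 (0.967) and Ccl8 (0.966). Their differences at 18 h were 1.13, 0.43, 1.60, 1.03 and 0.99 on the log2 scale. For Tfrc they were Iars (0.985), Cotl1 (0.981), Farsb (0.977), Fasn (0.977) and Prmt3 (0.974), with -2.07, -1.21, -1.35, -1.48 and -1.23 at 10 h. These are descriptions, with no p-value, since the 16 arrays share the contrast between NCFM and control cells.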
